A study of Mus musculus with 12 samples.

Results

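Collagens, laminins and integrins were followed at the mRNA level in mouse embryonic stem (ES) cells with and without the RNase Dicer. Genes were taken by name: protein-coding mouse genes whose symbol is Col, a number, a and a number, Lam with a, b or c and a number, or Itga or Itgb with a number or 1 letter. A gene was kept when its counts summed to at least 120 over the 12 libraries. The name rule found 80 of the 47643 genes in the table, and 43 of them passed the minimum: 19 of 44 collagens, 9 of 11 laminins and 15 of 25 integrins. The members just inside the minimum were Col13a1 (126 counts in all 12 libraries), Col4a5 (168) and Col27a1 (170), and the genes just outside were Col6a6 (110), Itga7 (98) and Lama2 (61). All 43 members also passed the filter on low counts that was applied to the whole table.

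The cells were E14 ES cells of the 129/Ola strain background, cultured with serum and LIF on gelatin-coated plates, all lines under puromycin, and poly(A) RNA was sequenced from 2 libraries in each of 6 groups. WT is the wild-type control and KO is the Dicer knockout. The lines SOM, 41584, 41585 and 41589 are described as Dicer-complemented: 41584 is labelled as similar to WT, 41585 as processing neither miRNAs nor siRNAs, and 41589 as lacking siRNA processing, while the label of SOM gives its name alone. The labels do not say what was put back in each line, how many clones a line stands for or whether the 2 libraries of a group are separate cultures. P-values therefore rest on the spread between libraries, which may be technical.

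Collagens are triple helices of 3 alpha chains. Type IV chains form the network of basement membranes, the fibrillar types form fibres, and others sit between cells and fibres. Laminins are trimers of an alpha, a beta and a gamma chain, and they are the first matrix that an early embryo lays down. Integrins are alpha-beta receptors that hold cells to such matrix, and ES cells bind laminin through integrins that carry the beta 1 chain. Dicer cuts precursor hairpins to miRNAs, which pair through a seed, bases 2 to 8, with sites in 3′ untranslated regions (UTRs) of mRNAs. The family of miR-294 and miR-302b is the most abundant in ES cells, let-7 accumulates as they differentiate, and the miR-29 family is known from other tissues for its many collagen targets.

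Mature miRNAs of these 3 families are shown because their seed matches were counted in the members. They are from the RefSeq miRNA table, 5′ to 3′, with the seed in capitals.
mmu-miR-29a-3p: uAGCACCAucugaaaucgguua
mmu-miR-29b-3p: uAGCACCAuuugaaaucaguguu
mmu-miR-294-3p: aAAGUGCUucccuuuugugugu
mmu-miR-302b-3p: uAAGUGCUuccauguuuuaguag
mmu-let-7a-5p: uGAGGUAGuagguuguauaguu

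Both miR-29 sequences share 1 seed, and miR-294 and miR-302b share another. The 7-base match to the miR-29 seed, TGGTGCT on the mRNA strand, was present in the longest annotated 3′ UTR of 16 of the 43 members (37.2%), against 15.8% of 12890 tested genes with a 3′ UTR of at least 50 bases. It was found in 11 of 19 collagens (57.9%, 25 sites in all), 4 of 15 integrins and 1 of 9 laminins. Median UTR length was 1016 bases in the members and 1192 bases over all those genes. The match to miR-294 and miR-302b, AGCACTT, was present in 6 members (14.0%, against 17.7% of all genes) and the let-7 match CTACCTC in 4 (9.3%, against 10.8%). A miR-29 match may run into a let-7 match through a shared CT. A match is a run of letters, and binding was not measured.

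Sites in 6 members are shown with the match in capitals and 11 bases on each side, on the mRNA strand of GRCm38. They come from collagens with several matches or with a called change, from Col4a1, which is described with Col4a2 below, from the abundant laminin chain Lamc1 and from the abundant integrin chain Itgb1.
Col5a1, chr2:28038004-28038010, plus strand: ctatgaacattTGGTGCTgaattttttac
Col11a1, chr3:114219133-114219139, plus strand: catttaaaaaaTGGTGCTcattcccatcc
Col2a1, chr15:97975682-97975688, minus strand: gtcctacacaaTGGTGCTattctgtgtca
Col4a1, chr8:11199762-11199768, minus strand: ccgtcacaacaTGGTGCTactcccccccc
Lamc1, chr1:153220069-153220075, minus strand: atctgacacacTGGTGCTattaattattt
Itgb1, chr8:128732875-128732881, plus strand: tctttaattccTGGTGCTcctttatcacc

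Libraries held 5348401 to 10428509 counts. Levels are CPM (reads of a gene scaled to a common library size) over TMM-scaled totals, and each pair of values below is replicate 1 and replicate 2. Dicer1 itself stood at 197 and 214 CPM in WT and at 28.5 and 44.0 in KO. It was 42.3 and 55.0 in 41584, 29.1 and 39.2 in 41585, 40.2 and 27.8 in 41589, and 105 and 215 in SOM, so counts on the mouse gene did not set 41584 apart from 41585. ES cell markers summed to 5640 to 6820 CPM in all libraries, with Dppa5a the largest single part at 1620 to 3420 CPM. Pou5f1, within that sum, ran from 140 CPM in WT replicate 1 to 946 in 41585 replicate 1. It was not called in KO against WT or 41585 against 41584. Markers of trophoblast, 7 genes, summed to 26.2 to 88.6 CPM, mostly from Tfap2c. Among them Elf5 and Hand1 rose in KO against WT by 3.95 and 3.27 on the log2 scale (edgeR adjusted p = 0.0231 and 0.0249) at levels of 9.27 CPM or less. Neither was called in 41585 against 41584 (adjusted p = 0.0774 and 0.13). The list did not move as 1 in KO against WT. Eomes (-1.26, adjusted p = 0.0587) and Tfap2c (-0.43, adjusted p = 0.395) were lower and Krt7 was higher, none of them called. Cdx2 and Gata3 were not tested. The part of the trophoblast markers in the members' levels was not tested. Of 8 fibroblast or feeder markers, Twist2 was at 0 and the sum was 8.31 to 39.4 CPM, nearly all of it from Thy1 and Pdgfrb. The fibrillar collagens that define fibroblasts were near the detection limit and are no members: Col1a1 had 49 counts over all 12 libraries, Col1a2 13 and Col3a1 1. Markers of primitive and parietal endoderm, 10 genes of a lineage that makes much type IV collagen and laminin, summed to 108 CPM in 41584 replicate 1 and to 8.62 to 32.8 CPM in the other 11 libraries. That library also departed from its own group in the members. Between the libraries of 41584, 23 of the 43 members differed at least 2-fold, compared with 5 in WT, 3 in KO, 5 in SOM, 11 in 41585 and 11 in 41589. Fewer cells expressing a gene and less RNA per cell cannot be told apart in such bulk libraries.

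The levels per kilobase of exon placed receptor and laminin chains above most collagens. Itgb1, the beta 1 chain that pairs with most alpha chains here, was highest at 56.7 CPM per kb averaged over all libraries, followed by Lamc1, the gamma 1 chain shared by most laminins, at 41.4. Next came Itga6, a laminin receptor chain (30.0 CPM per kb), Itga5, the fibronectin receptor chain (22.5), and Col18a1, a basement membrane collagen (18.9). Lamb1 followed at 11.1, Itgb7 at 10.3, Lama5 at 9.78, Itgav at 7.91 and Itgb5 at 7.49. Lama1 (7.19) and Itga3 (7.17) stood just below. This order is of means over all libraries, and it changed with the group. Itgb1 was highest in every group mean, but in WT Itga6 (35.0 CPM per kb) stood above Lamc1 (11.9), and in 41585 Itga5 (42.7) and Col18a1 (42.0) stood above Itga6 (23.9). Col18a1 ran from 5.87 in WT to that value. In summed CPM, integrins took 621 to 1190, laminins 283 to 1020 and collagens 123 to 428 per library.

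**Figure D1:**
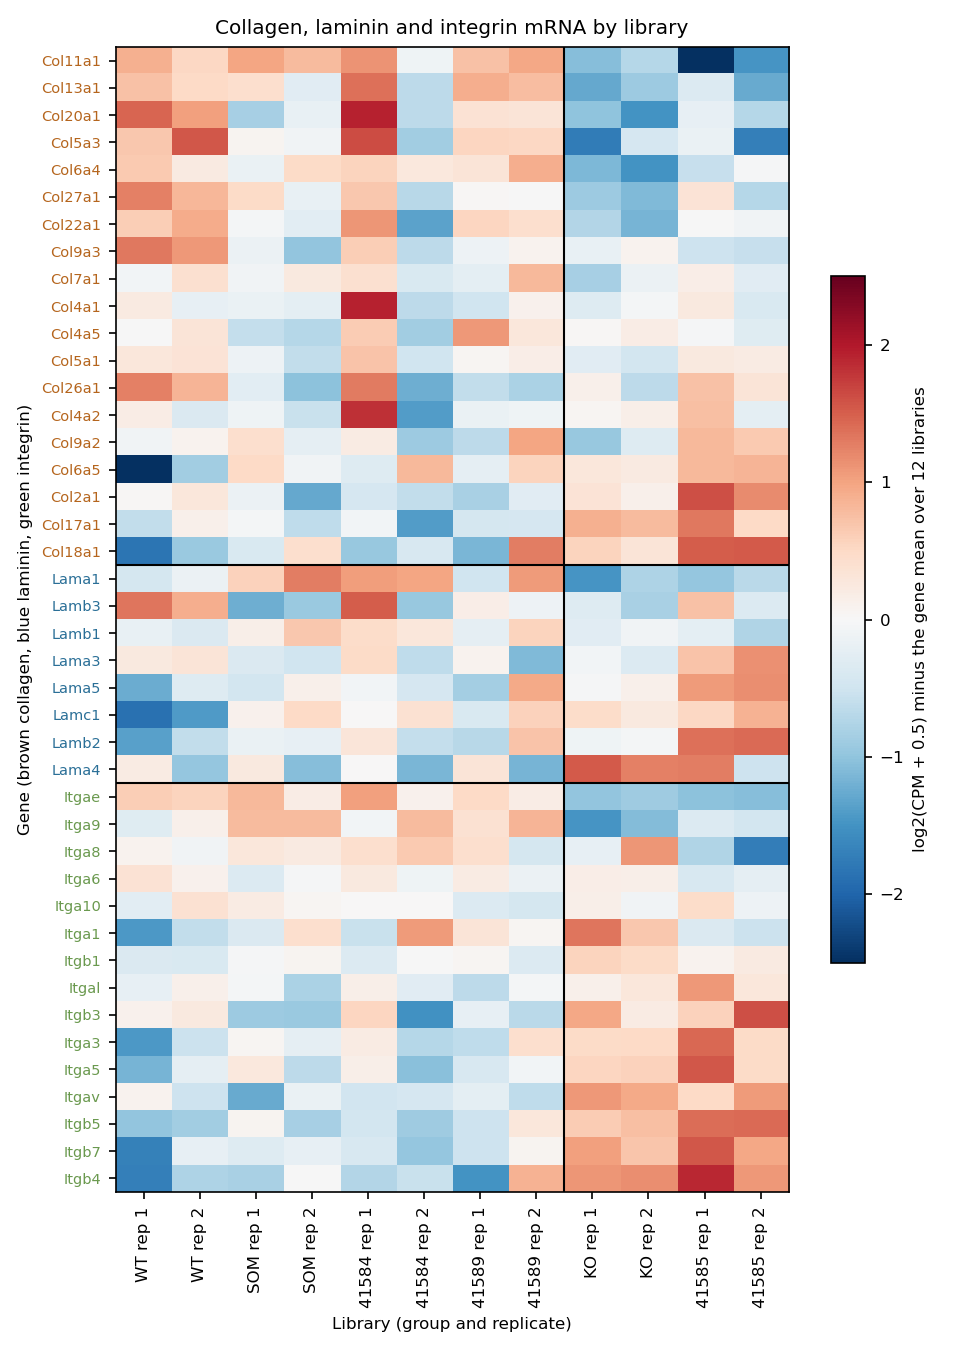
Level of 42 members in each of the 12 libraries, as log2(CPM + 0.5) minus the gene's mean over the 12 libraries (colour, limited to 2.5 on either side of 0). Rows are grouped as collagens, laminins and integrins and ordered by the pooled difference. The 4 libraries right of the vertical line are KO and 41585, where Itgav, Itgb4, Itgb5 and Itgb7 are high and Itgae is low.

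Receptor genes changed most often. In KO against WT, 6 of 15 integrins rose and 2 fell, and in 41585 against 41584, which shares no library with the first comparison, 4 rose and 1 fell. Over all members, 13 of 43 were called in KO against WT, 8 higher and 5 lower. Called means a Benjamini-Hochberg adjusted p under 0.05 over 14629 genes in edgeR's quasi-likelihood test, and 7.29% of those genes were called higher and 5.9% lower. In 41585 against 41584, 9 members were called, 6 higher (all genes 7.65%) and 3 lower (5.07%). Median log2 fold changes of integrins were 0.90 and 0.82 in the respective comparisons, against 0.00 and -0.01 for all genes. These counts were sensitive to single libraries: with 1 library left out, 1 to 4 members were called in KO against WT and 1 to 10 in 41585 against 41584. None of the former was lower, and without 41584 replicate 2 the split in 41585 against 41584 was 1 higher and 7 lower. Over all genes, each of those fits also called fewer genes than the main fit. Each call is therefore given with the levels behind it.

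Itgav, Itgb5, Itgb7 and Itgb4 were higher in both comparisons. Itgav encodes the alpha v chain, which binds RGD sequences in vitronectin and fibronectin. Its levels were 160 and 145 CPM in KO and 106 and 158 in 41585, compared with 80.1 and 52.2 in WT, 53.3 and 56.0 in 41584, 63.3 and 48.2 in 41589, and 31.2 and 66.9 in SOM. All 4 KO and 41585 libraries were above the 8 others. For Itgav, KO exceeded WT by 1.21 ± 0.34 (SE, edgeR adjusted p = 0.0365) and 41585 exceeded 41584 by 1.27 ± 0.34 (adjusted p = 0.0319) on the log2 scale.

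Itgb5, a beta partner of alpha v, stood at 34.8 and 37.4 CPM in KO and 58.9 and 59.7 in 41585. It was 11 and 11.9 in WT, 16.0 and 11.8 in 41584, 15.4 and 27.1 in 41589, and 23.1 and 12.2 in SOM, so no library of those groups reached the KO or 41585 levels. The rise was 1.65 ± 0.36 on the log2 scale in KO (edgeR adjusted p = 0.0126) and 2.09 ± 0.36 in 41585 (adjusted p = 0.00493). Itgb5 was the 1 member still called in 41585 against 41584 whichever of the 4 libraries was left out, with adjusted p between 0.0144 and 0.03. In KO against WT the same omissions gave 0.0643 to 0.116. The per-kilobase ratio of Itgav to Itgb5 ran from 0.446 in SOM replicate 1 to 2.41 in WT replicate 1.

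Itgb7, best known from lymphocyte homing, had 48.8 and 38.8 CPM in KO and 70.8 and 46.6 in 41585. It had 6.96 and 20.5 in WT, 17.9 and 11.8 in 41584, 16.4 and 24.7 in 41589, and 18.9 and 20.5 in SOM, again with no overlap. The log2 fold changes were 1.66 ± 0.44 (edgeR adjusted p = 0.0281) and 1.98 ± 0.44 (adjusted p = 0.0157). Itgb7 lies on chromosome 15, whose genes as a whole were shifted from the library median by between -0.417 (41584 replicate 2) and 0.345 (41585 replicate 1) on the log2 scale. With chromosome 15 scaled by its own median, Itgb7 stood at 1.65 and 1.82 with both calls unchanged. With 1 library left out, Itgb7 was called in 1 of 4 fits in KO against WT and in 2 of 4 in 41585 against 41584.

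Itgb4, the beta 4 chain that pairs with alpha 6 in hemidesmosomes, was at 18.1 and 18.9 CPM in KO and 31.5 and 17.8 in 41585. Levels were 2.17 and 4.59 in WT, 4.73 and 5.44 in 41584, 4.46 and 8.08 in SOM, but 2.57 and 15.3 in 41589, whose replicate 2 came close to the KO range. Itgb4 rose by 2.42 ± 0.68 (edgeR adjusted p = 0.0354) and 2.27 ± 0.67 (adjusted p = 0.043) on the log2 scale. Both calls of Itgb4, and both of Itgav, were lost whichever of the 4 compared libraries was left out, with adjusted p up to 0.246 for Itgb4 and 0.198 for Itgav.

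**Figure D2:**
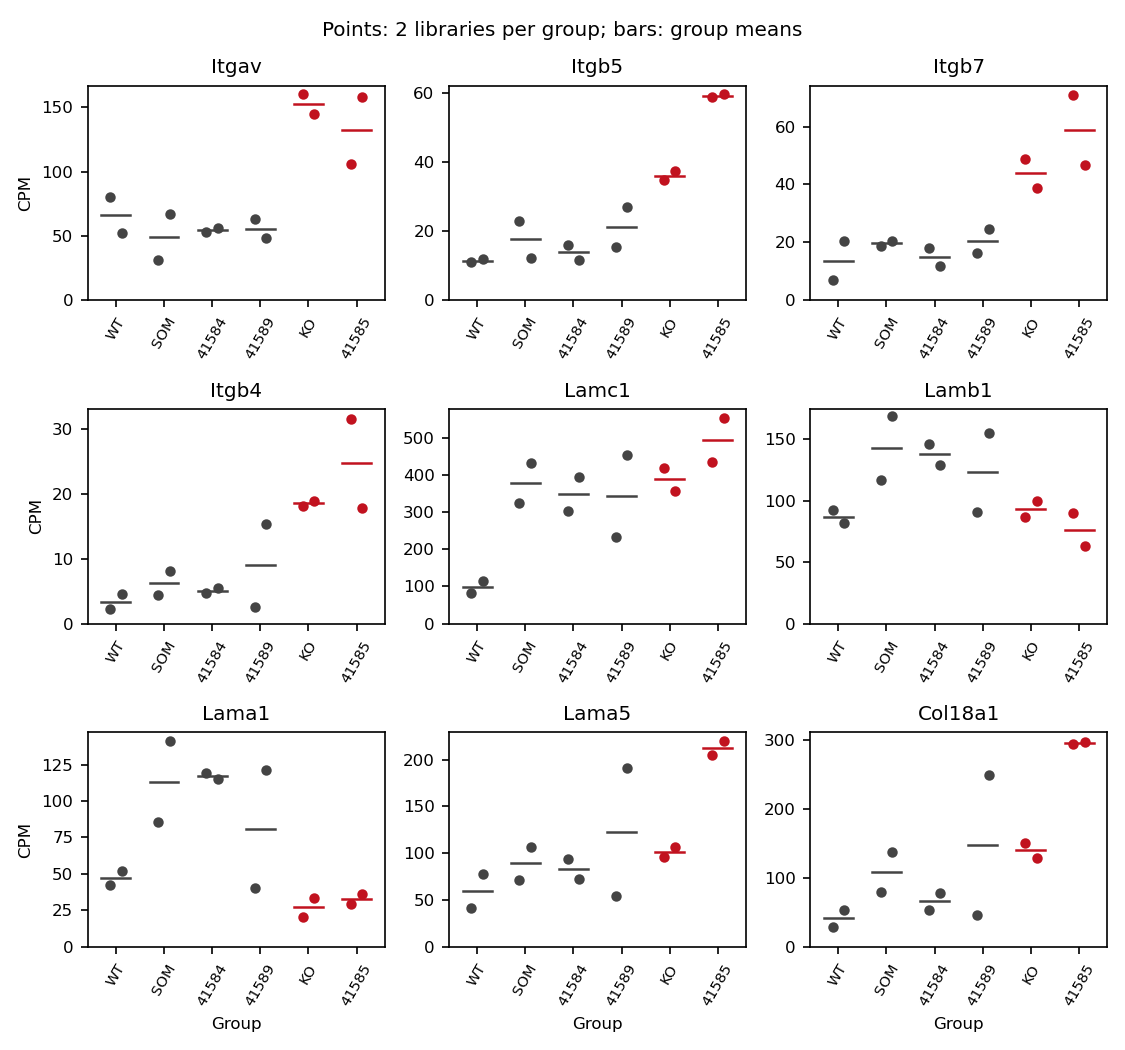
CPM of 9 members in each group: points are the 2 libraries, bars their mean, red marks KO and 41585, and every vertical axis starts at 0. Itgav, Itgb5, Itgb7 and Itgb4 are higher in all red points than in any grey point, Lama1 is lower in all red points, and Lamc1 is low in WT alone (83.4 and 114 CPM).

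Itgb1, the common beta partner, rose in KO against WT. It was 335 and 314 CPM in KO and 239 and 263 in 41585, compared with 175 and 173 in WT, 179 and 226 in 41584, 235 and 179 in 41589, and 221 and 238 in SOM. The rise was 0.90 ± 0.22 on the log2 scale in KO against WT (edgeR adjusted p = 0.0202, and 0.0843 to 0.163 with any 1 of the 4 libraries left out), and its difference in 41585 against 41584 was 0.31 ± 0.22 (adjusted p = 0.336). Among alpha partners, Itga6 was 343 and 289 CPM in WT and 301 and 297 in KO, and its differences of -0.08 ± 0.23 and -0.39 ± 0.23 were not called (edgeR adjusted p = 0.841 and 0.256). The per-kilobase ratio of Itga6 to Itgb1 was 0.383 to 0.427 in KO and 41585, 0.43 and 0.497 in SOM, and 0.495 to 0.887 in WT, 41584 and 41589.

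Itga5 and Itga3, chains for fibronectin and laminin, missed the threshold in both comparisons. Itga5 was 43.3 and 83.1 CPM in WT and 141 and 146 in KO, and 108 and 46.9 in 41584 against 286 and 135 in 41585. Its log2 differences were 1.18 ± 0.46 (edgeR adjusted p = 0.105) and 1.44 ± 0.46 (adjusted p = 0.0561). Itga5 is another gene on chromosome 15, and with that chromosome scaled by its own median it was called in both, at 1.16 ± 0.33 (adjusted p = 0.037) and 1.29 ± 0.33 (adjusted p = 0.0256). Itga3 stood at 13.0 and 24.6 CPM in WT, 50.6 and 51.3 in KO, 41.5 and 21.8 in 41584 and 97.9 and 50.3 in 41585. Its differences were 1.43 ± 0.45 (edgeR adjusted p = 0.0521) and 1.22 ± 0.44 (adjusted p = 0.0802). Across the 12 libraries the log2 levels of Itga3 and Itga5 had a Pearson correlation of 0.934, a description over libraries that share groups.

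Itgae, the alpha E chain that binds E-cadherin, was the 1 member lower in both comparisons. Its levels were low throughout: 0.976 and 1.08 CPM in KO and 0.936 and 0.90 in 41585, compared with 4.02 and 3.83 in WT, 5.5 and 2.64 in 41584, 3.64 and 2.83 in 41589, and 4.63 and 2.82 in SOM. No library of the other groups came down to the KO and 41585 values. Itgae fell by 1.92 ± 0.56 (edgeR adjusted p = 0.0395) and by 2.14 ± 0.56 (adjusted p = 0.0282) on the log2 scale. With 1 library left out, Itgae was called in none of 4 fits in KO against WT (adjusted p from 0.111 to 0.258) and in 1 of 4 in 41585 against 41584.

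Itga9, a receptor chain for tenascin and osteopontin, was 15.5 and 20.9 CPM in WT and 6.59 and 8.78 in KO. It was 18.4 and 33.4 in 41584, 15.1 and 13.8 in 41585, 25.2 and 34.9 in 41589, and 33.8 and 33.4 in SOM. It fell by 1.25 ± 0.36 in KO (edgeR adjusted p = 0.0377), and SOM was higher than KO by 2.13 ± 0.36 (adjusted p = 0.00573) on the log2 scale. Itga1, a collagen receptor chain, was 0.464 and 1.2 CPM in WT and 6.1 and 3.69 in KO, a rise of 2.49 ± 0.72 (edgeR adjusted p = 0.0396). In 41584 it was 1.28 and 4.97 and in 41585 1.52 and 1.29 CPM, where the log2 difference was -1.13 ± 0.69 (adjusted p = 0.272). Leaving out any 1 of the 4 libraries ended the KO calls of Itga9 (edgeR adjusted p from 0.105 to 0.288) and Itga1 (0.0825 to 0.261).

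In KO against WT, 2 of 9 laminins rose (all genes 7.29%) and none fell (5.9%), and in 41585 against 41584 Lama1 fell (5.07%) and none rose (7.65%). Among those that rose, Lamc1, the shared gamma 1 chain, showed a gap between WT and all other groups. It was 83.4 and 114 CPM in WT, 420 and 358 in KO, 326 and 432 in SOM, 304 and 395 in 41584, 435 and 554 in 41585, and 234 and 454 in 41589. The rise in KO against WT was 1.98 ± 0.32 on the log2 scale (edgeR adjusted p = 0.00338), while 41585 differed from 41584 by 0.50 ± 0.31 (adjusted p = 0.278). Leaving out WT replicate 1 brought the knockout's adjusted p to 0.0607. The line labelled as similar to WT differed from it by 1.82 ± 0.32 and SOM by 1.94 ± 0.32, though neither passed after adjustment (edgeR adjusted p = 0.347 and 0.119).

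The differences between the comparisons were tested as an interaction, and no member was called. Itga1 gave -3.61 ± 1.00 and Lamc1 -1.47 ± 0.44 on the log2 scale (edgeR adjusted p = 0.999 each). At an unadjusted p under 0.05, 7 of 43 members and 419 of 14629 genes passed. A call in 1 comparison alone is therefore not shown to be particular to it.

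Lama1, the alpha 1 chain of early embryonic laminin, went the other way from Lama5, the alpha 5 chain. Lama1 was 20.4 and 33.6 CPM in KO and 29.4 and 36.1 in 41585, compared with 42.2 and 52.2 in WT, 119 and 115 in 41584, 40.6 and 121 in 41589, and 85.7 and 141 in SOM. All KO and 41585 libraries lay below all others. It fell by 1.83 ± 0.43 on the log2 scale in 41585 against 41584 (edgeR adjusted p = 0.0191, lost without either 41585 library) and was higher in SOM than in KO by 2.07 ± 0.44 (adjusted p = 0.0162). The difference in KO against WT was -0.81 ± 0.43 (adjusted p = 0.222).

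Lama5 was 41.1 and 78.1 CPM in WT, 95.6 and 107 in KO, 93.6 and 72.8 in 41584, 205 and 220 in 41585, 54.2 and 191 in 41589, and 71.5 and 107 in SOM. Its differences of 0.76 ± 0.46 and 1.36 ± 0.46 were not called (edgeR adjusted p = 0.288 and 0.068). Per kilobase, the ratio of Lama1 to Lama5 was 0.168 to 0.371 in the KO and 41585 libraries and 0.747 to 1.85 in the 8 others. The summed endoderm markers were also low in KO and 41585, at 8.62 to 12.6 CPM against 12.8 to 108 CPM elsewhere. Dab2, Cubn and Pdgfra made up much of the sum outside KO and 41585. Gata4 did not follow it, at 5.61 and 3.85 CPM in KO, 4.21 and 7.33 in 41585, 3.71 and 3.17 in WT and 10.9 and 1.4 in 41584. The markers' part in the Lama1 levels was not tested. Lamb1, the main beta chain, was 92.5 and 81.6 CPM in WT, 86.4 and 100.0 in KO, 146 and 129 in 41584 and 89.7 and 62.8 in 41585. Its log2 differences of 0.10 ± 0.29 and -0.85 ± 0.29 were not called (edgeR adjusted p = 0.848 and 0.068).

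Collagens were lower at the median, and those called went in both directions. Median log2 fold changes were -0.78 in KO against WT and -0.33 in 41585 against 41584. The second median drew on 41584 replicate 1, the highest of the 12 libraries for Col20a1, Col22a1, Col26a1, Col4a1 and Col4a2, among others. Without it Col20a1, Col27a1, Col4a1 and Col4a2 stood above 0, at 0.29, 0.89, 0.65 and 1.92, and Col11a1 stayed below 0. Such values were not taken for Col22a1, Col26a1, Col4a5, Col5a1, Col7a1 and Col9a3, also below 0 in the main fit. In CPM, 41584 replicate 2 was below both 41585 libraries for each of these. It was above both for Col6a4 and between them for Col5a3 and Col13a1. The median without that library was not computed. In the first comparison 3 of 19 fell and none rose, and in the second 2 rose and 1 fell, so 15.8% were called in each. Of all genes, 5.9% fell and 7.29% rose in the first and 5.07% and 7.65% in the second, so the number of collagens called was close to the background. Those called were mostly of low abundance. Col20a1, a fibril-associated collagen, was 6.96 and 5.03 CPM in WT and 0.854 and 0.462 in KO, a fall of 3.12 ± 0.84 (edgeR adjusted p = 0.03). Col27a1, a fibrillar collagen of cartilage, was 4.48 and 3.17 against 0.61 and 0.462 CPM, a fall of 2.78 ± 0.76 (adjusted p = 0.0326). Col6a4 was 9.12 and 6.67 against 2.32 and 1.69 CPM, a fall of 1.96 ± 0.47 (adjusted p = 0.0192). Each of these calls was lost whichever of the 4 libraries was left out.

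Col11a1, a minor fibrillar collagen, was 7.93 and 3.11 CPM in 41584, 0.117 and 0.90 in 41585 and 5.88 and 7.03 in 41589. It fell by 3.44 ± 0.72 in 41585 against 41584 (edgeR adjusted p = 0.0119), and 41589 was higher than 41585 by 3.66 ± 0.71 (adjusted p = 0.01). Its levels in KO were 1.34 and 1.85 CPM against 6.65 and 5.03 in WT, a difference of -1.87 ± 0.63 (adjusted p = 0.0666). Without 41585 replicate 1 the adjusted p in 41585 against 41584 was 0.0934. Chondrocyte markers, summed over 6 genes, were 34.6 and 31.8 CPM in WT, 1.71 and 1.54 in KO, 15.4 and 7.14 in SOM, 27.4 and 9.95 in 41584, 4.21 and 5.02 in 41585, and 25.6 and 11 in 41589. Acan and Matn3 made up most of the sum, and both fell in both comparisons, whereas Matn1 was not called in either. The 3 others were near the detection limit, at 6 counts in all libraries for Sox9, 20 for Comp and 2 for Hapln1. The sum was low in KO, where Col27a1 and Col20a1 fell, and in 41585, where Col27a1 differed by -0.33 (edgeR adjusted p = 0.771) and Col2a1 rose. The markers' part in the collagen levels was not tested.

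Col18a1 and Col2a1 rose in 41585. Col18a1, which carries endostatin at its end, was the most abundant collagen at 294 and 297 CPM in 41585, 53.3 and 78.0 in 41584, 151 and 129 in KO, 28.5 and 54.0 in WT, 78.7 and 137 in SOM, and 46.4 and 249 in 41589. It rose by 2.17 ± 0.58 in 41585 against 41584 (edgeR adjusted p = 0.0311, and 0.0692 to 0.112 with any 1 of the 4 libraries left out) and its difference in KO against WT was 1.76 ± 0.58 (adjusted p = 0.0613). Replicate 2 of 41589 reached the 41585 range more nearly than its own partner did, as for Lama5, and Col18a1 and Lama5 had a Pearson correlation of 0.942 over the 12 libraries. Col2a1, the cartilage collagen, was 18.7 and 13.8 CPM in 41585 and at most 7.44 in any other library. Its rise over 41584 was 2.05 ± 0.46 (adjusted p = 0.0159, lost without 41584 replicate 2 or 41585 replicate 1), or 1.89 with chromosome 15, on which it lies, scaled by its own median. In KO against WT its difference was 0.08 ± 0.45 (adjusted p = 0.922).

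**Figure D3:**
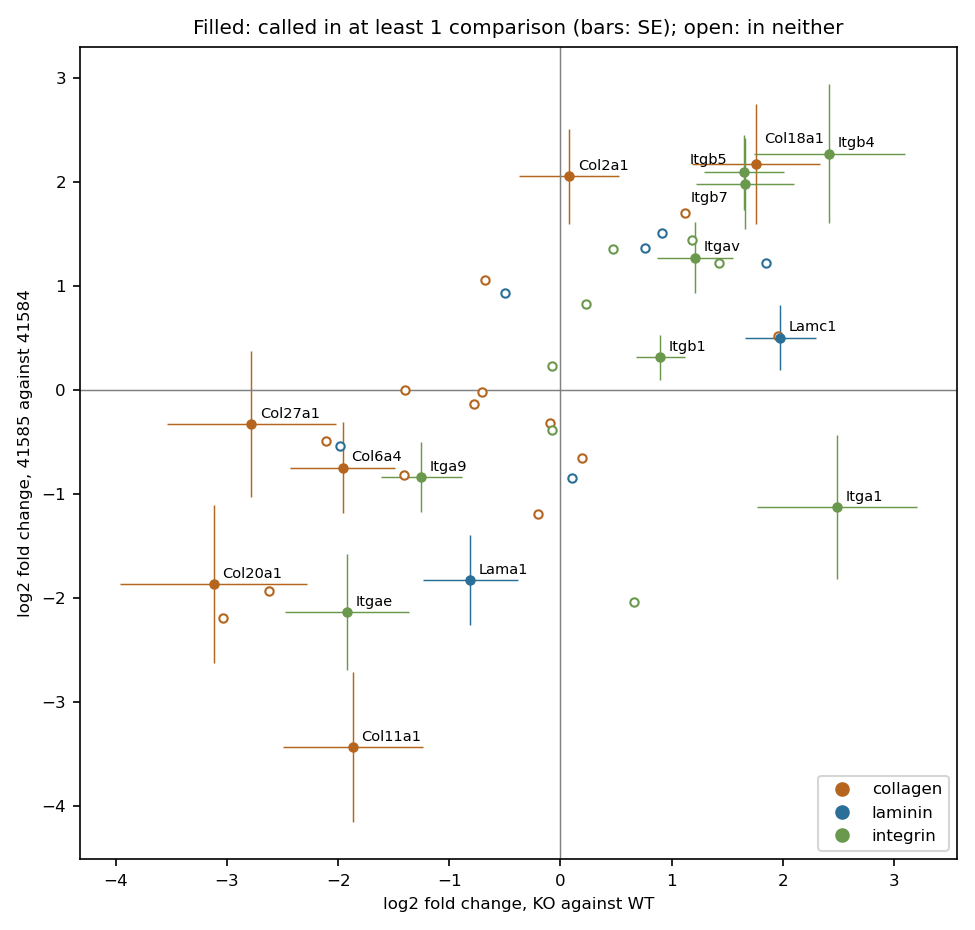
Log2 fold change of 42 members in KO against WT (horizontal) and in 41585 against 41584 (vertical), which share no library. Filled points with bars (SE) were called in at least 1 of the comparisons. Itgav, Itgb4, Itgb5 and Itgb7 are high on both axes and Itgae low on both, and Itga1 (2.49 and -1.13) and Col2a1 (0.08 and 2.05) lie off the diagonal, with no member called in the test of the difference.

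Of the 8 members higher in KO against WT, 4 (50%) were also higher in 41585 against 41584, which is 66.7% of the 6 called there. Of the 5 lower, 1 (20.0%) was shared, or 33.3% of the 3 called lower in the second comparison. Over all genes, 62.4% of those called higher in the first comparison were also called higher in the second (59.4% of the second list), and 46.7% of those called lower (54.3%).

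The type IV chains Col4a1 and Col4a2 stood apart in 1 library. Col4a1 was 77.7 CPM in 41584 replicate 1 and 12.6 in replicate 2, and 14.2 to 24.1 in the other 10 libraries. Col4a2 was 25.6 and 2.33 CPM in the same pair, and 4.51 to 11.9 elsewhere. In KO against WT their log2 differences were -0.20 ± 0.59 and 0.19 ± 0.75 (edgeR adjusted p = 0.852 and 0.891). In 41585 against 41584 they were -1.20 ± 0.59 and -0.66 ± 0.73 (adjusted p = 0.177 and 0.55), and without 41584 replicate 1 they were 0.65 and 1.92 (adjusted p = 0.306 and 0.0554). Endoderm markers were at their highest in that library, at 108 CPM. The fibroblast or feeder sum was too, at 39.4 CPM against 8.31 to 23.5 elsewhere. Thy1 (25.4 CPM) and Pdgfrb (13.7 CPM) made up nearly all of it. Postn, Lum, Dcn, Fap and S100a4 had at most 8 counts each over all 12 libraries. The part of these markers in the type IV levels was not tested.

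Both chains form 1 heterotrimer and their genes lie head to head on chromosome 8, so their promoters are shown. Per kilobase, Col4a1 was 1.79 to 4.79 times Col4a2 in every library, and the log2 levels had a Pearson correlation of 0.896 over the 12 libraries. The windows run from 250 bases before to 50 after each start in the RefSeq promoter table (GRCm38.p6), and they overlap by 78 bases. Capitals mark the GC box, with the letters GGGCGG, and the CCAAT box, both searched on either strand.
Col4a1, chr8:11312777-11313076, minus strand: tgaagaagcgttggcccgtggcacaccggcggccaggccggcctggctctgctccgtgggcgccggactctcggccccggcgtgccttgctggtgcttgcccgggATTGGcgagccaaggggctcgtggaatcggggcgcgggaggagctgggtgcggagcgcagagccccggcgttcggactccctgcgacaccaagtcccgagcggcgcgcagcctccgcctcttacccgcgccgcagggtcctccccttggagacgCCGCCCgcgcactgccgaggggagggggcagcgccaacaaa
Col4a2, chr8:11312555-11312854, plus strand: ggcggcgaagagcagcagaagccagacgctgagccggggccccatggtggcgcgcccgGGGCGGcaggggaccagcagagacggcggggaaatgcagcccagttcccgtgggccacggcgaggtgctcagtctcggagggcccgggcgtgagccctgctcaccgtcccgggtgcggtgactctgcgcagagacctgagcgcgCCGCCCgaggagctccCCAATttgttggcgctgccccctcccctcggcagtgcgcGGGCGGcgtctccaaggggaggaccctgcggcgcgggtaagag

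The Col4a1 window held 1 GC box and 1 CCAAT box, and the Col4a2 window held 3 and 1. The GC box of the Col4a1 window lies in the overlap and is the same site as the last one marked in Col4a2. Over 32851 promoters, 35.7% held a GC box, 37.4% a CCAAT box and 13.6% a TATAAA, which neither window held. On opposite strands a GC box and a CCAAT box may share end letters. The 2 genes overlap at their starts in the annotation, and no label says how the counting used strand, so reads from that overlap may have been assigned to either.

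Pooling the groups raised the number of calls. KO and 41585 were set against WT, 41584 and 41589, with the spread taken within groups. Of 43 members, 15 were higher (17.6% of all genes) and 8 lower (15.9% of all genes). By class, 8 integrins rose and 2 fell, 4 laminins rose and 1 fell, and 3 collagens rose and 5 fell. This comparison uses the libraries of the comparisons above and is no independent test of them. Leaving out each of its 10 libraries in turn, 15 of the 22 calls reported one by one held every time and the number called ranged from 17 to 27.

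Pooled differences were largest for Itgb4 at 1.98 ± 0.41 (edgeR adjusted p = 0.00304) among the integrins that rose, followed by Itgb7 (1.65 ± 0.27), Itgb5 (1.62 ± 0.22), Itgav (1.28 ± 0.21), Itga5 (1.23 ± 0.29), Itga3 (1.14 ± 0.28), Itgb3 (1.06 ± 0.35) and Itgb1 (0.56 ± 0.14). Laminins that rose included Lama4 (1.49 ± 0.49), Lamb2 (0.97 ± 0.31) and Lamc1 (0.94 ± 0.20). The Lamc1 difference drew largely on WT, at 83.4 and 114 CPM. In 41584 (304 and 395) and 41589 (234 and 454) Lamc1 overlapped KO (420 and 358), and leaving out 1 library does not remove the WT group. Collagens that fell were Col11a1 (-2.72 ± 0.45), Col13a1 (-2.69 ± 0.67), Col20a1 (-2.18 ± 0.54), Col5a3 (-2.09 ± 0.62) and Col6a4 (-1.43 ± 0.30), and those that rose were Col18a1 (1.46 ± 0.36), Col17a1 (1.43 ± 0.35) and Col2a1 (1.19 ± 0.28). Adjusted p of Lama4, Lamb2 and Itgb3 rose above 0.05 when 1 of 5 or more different libraries was left out. Those of Col5a3 (without KO replicate 1, 41584 replicate 1 or 41585 replicate 2), Col13a1 and Itgb1 (without KO replicate 1) and Itga3 (without 41585 replicate 1) did so as well.

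Every KO and 41585 library was above every WT, 41584 and 41589 library for 8 members: Col17a1, Itga3, Itga5, Itgav, Itgb1, Itgb4, Itgb5 and Itgb7 (11.4% of all genes). Every such library was below for 5: Col11a1, Col6a4, Itga9, Itgae and Lama1 (9.85% of all genes).

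**Figure D4:**
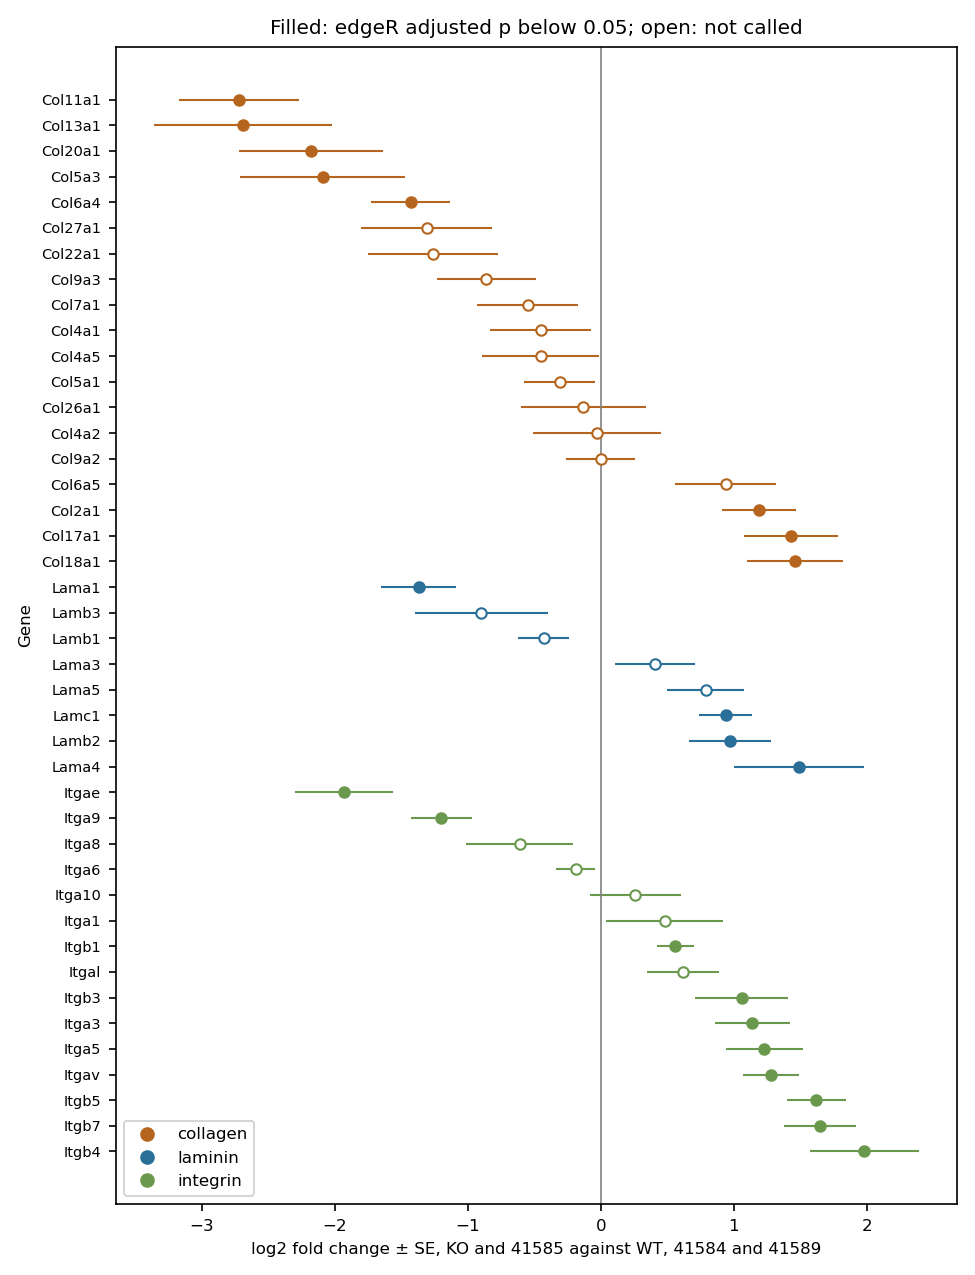
Log2 fold change ± SE of 42 members, KO and 41585 against WT, 41584 and 41589, with the scale the same for the 3 classes. Filled points have an edgeR adjusted p under 0.05. In all, 10 of 15 integrins are filled, 8 to the right of 0, while 5 of the 8 filled collagens lie to the left.

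Line 41589 was next compared with 41585, and SOM, whose label states no processing, with KO. In 41589 against 41585, 1 member was higher (all genes 3.11%), Col11a1, and 4 were lower (5.22%): Itgav at -1.24 ± 0.34, Itgb5 at -1.48 ± 0.35, Itgb7 at -1.51 ± 0.43 and Col2a1 at -2.06 ± 0.45 (edgeR adjusted p = 0.041, 0.0231, 0.0469 and 0.0174). Leaving out 1 library gave 0 to 10 such members. In SOM against KO, 2 members were higher (1.48% of all genes), Itga9 and Lama1, and 1 was lower (4.6%), Itgav at -1.64 ± 0.35 (adjusted p = 0.0164). The comparisons of 41589 and of 41584 with 41585 share the 41585 libraries, and those of SOM and of WT with KO share the KO libraries.

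No member was called higher or lower in 41585 against KO, 41584 against WT, SOM against WT or 41589 against 41584, and neither was any other gene in edgeR (0.0% in each direction and comparison). At an unadjusted p under 0.05, 10, 7, 11 and 1 members passed in that order, out of 995, 706, 3175 and 103 genes. DESeq2 called 0, 1, 3 and 0 members (0.0037%, 0.286%, 5.3% and 0% of all genes). These counts do not show that the lines are alike. 

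Members with a miR-29 seed match were found among those that rose and those that fell. Collagens with a match had a median log2 fold change of -0.78 in KO against WT, with 9 of 11 below 0, and the 8 without had -1.04, with 5 below 0. In 41585 against 41584 the medians were -0.33, with 10 of 11 below 0, and -0.12, with 4 of 8 below 0. Of those 10, Col26a1 (-0.00 ± 0.69) and Col5a1 (-0.02 ± 0.41) were at 0 within their error. The count in 41585 against 41584 also rested largely on 1 library, 41584 replicate 1. Without it Col4a1, Col4a2 and Col27a1, each with a match, stood at 0.65, 1.92 and 0.89. Fold changes without it were not taken for Col22a1, Col26a1, Col4a5, Col5a1 and Col7a1, also matched. Their CPM in 41584 replicate 2 was below both 41585 libraries, for example 1.09 against 5.62 and 4.12 for Col26a1. Col11a1 stayed at -2.61 or lower with any 1 library left out. These counts were not tested. Col5a1 and Col26a1, with 4 matches each, differed by -0.71 ± 0.42 and -1.40 ± 0.72 in KO against WT (edgeR adjusted p = 0.27 and 0.21). Of the matched genes shown above, Lamc1 and Itgb1 rose in KO against WT and Col2a1 in 41585 against 41584, whereas Col11a1 fell in the latter. The miR-29 family was not measured in these poly(A) libraries, so its level in any group is not known here.

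**Figure D5:**
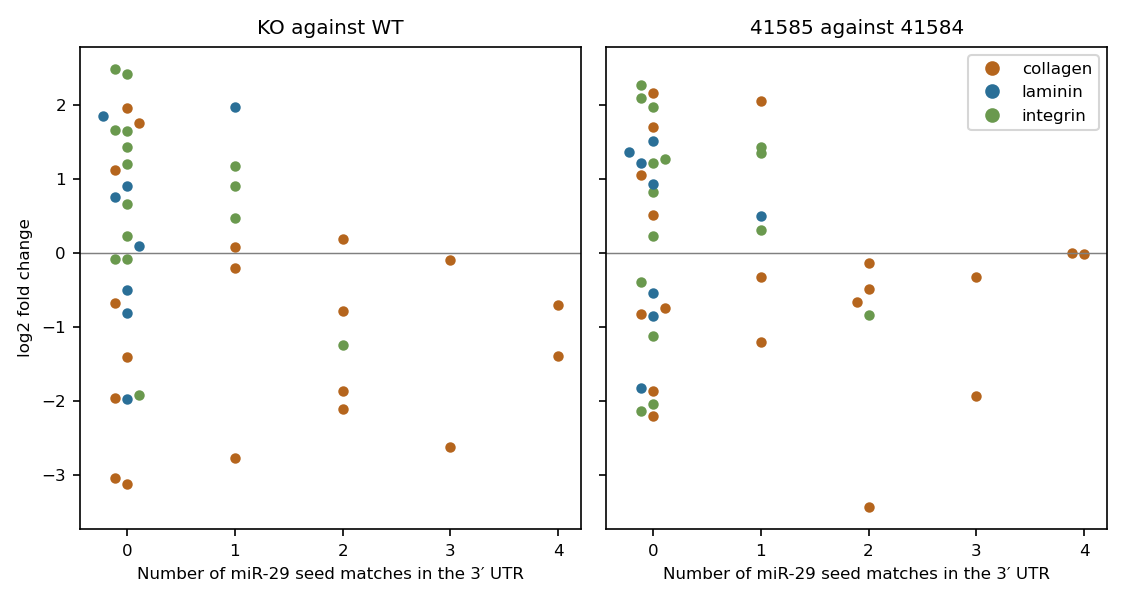
Number of miR-29 seed matches in the longest 3′ UTR of 42 members (horizontal, points moved sideways where they would overlap) and the log2 fold change in KO against WT (left) and 41585 against 41584 (right). Of the collagens with a match, 9 of 11 and 10 of 11 lie below 0, 2 of the 10 by 0.02 or less. Of those without, 5 and 4 of 8 do. Without 41584 replicate 1, Col4a1, Col4a2 and Col27a1 would lie above 0 on the right. That value was not taken for Col22a1, Col26a1, Col4a5, Col5a1 and Col7a1, whose CPM in 41584 replicate 2 was below both 41585 libraries.

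Enzymes that modify collagen changed in both directions. Of 33 listed genes of collagen biosynthesis and cross-linking, 26 were tested, of which 5 rose and 3 fell in KO against WT (all genes 7.29% and 5.9%), and 7 rose and 3 fell in 41585 against 41584 (7.65% and 5.07%). Plod2, a lysyl hydroxylase that sets collagen cross-links, was 292 and 286 CPM in WT, 60.1 and 81.0 in KO, 235 and 192 in 41584 and 50 and 64.6 in 41585. It fell by 2.03 ± 0.34 (edgeR adjusted p = 0.00359) and by 1.90 ± 0.34 (adjusted p = 0.0059). Crtap and P3h4, of prolyl and lysyl modification complexes, rose by 1.38 ± 0.28 and 2.25 ± 0.56 in KO against WT (adjusted p = 0.00919 and 0.0216), and so did Pcolce2, an enhancer of procollagen cleavage, by 1.24 ± 0.32 (adjusted p = 0.0252). All 3 also rose in 41585 against 41584, by 1.28 ± 0.28, 3.07 ± 0.55 and 1.99 ± 0.32.

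Other basement membrane and matrix genes rose more often than they fell: 18 of 22 were tested, 4 rose and 1 fell in KO against WT (all genes 7.29% and 5.9%), and 4 rose and none fell in 41585 against 41584 (7.65% and 5.07%). Egfl6, a basement membrane ligand of integrins, was 2.47 and 3.39 CPM in WT, 50.4 and 32.3 in KO, 4.35 and 5.44 in 41584 and 29.8 and 36.7 in 41585, rises of 3.80 ± 0.39 and 2.76 ± 0.37 (edgeR adjusted p = 0.000285 and 0.00139). Sparc, a collagen-binding glycoprotein, rose by 2.07 ± 0.23 and 1.13 ± 0.23 (adjusted p = 0.000414 and 0.0101). Spp1, the osteopontin ligand of alpha v integrins, rose by 0.94 ± 0.27 in KO against WT and Fbln2 fell by 3.41 ± 0.82 (adjusted p = 0.0395 and 0.0194).

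Of 13 other matrix receptors, all tested, 3 rose in each comparison (all genes 7.29% and 7.65%) and none fell. Ddr1, a collagen receptor kinase, rose by 1.77 ± 0.48 and 1.73 ± 0.47 (edgeR adjusted p = 0.0314 and 0.0329), and Bcam, a receptor of laminin alpha 5, by 1.80 ± 0.54 and 1.84 ± 0.53 (adjusted p = 0.0464 and 0.0419). Dag1, dystroglycan, rose by 0.92 ± 0.26 in KO against WT (adjusted p = 0.036), and Sdc1, syndecan 1, by 1.27 ± 0.33 in 41585 against 41584 (adjusted p = 0.027).

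Inside the cell, 29 of 31 listed adhesion complex genes were tested, of which 3 rose and 1 fell in KO against WT and 1 rose and 1 fell in 41585 against 41584. These shares were near or below those of all genes (7.29% and 5.9%, then 7.65% and 5.07%). Parva, which links integrins to actin together with Ilk, was 13.8 and 11.5 CPM in WT, 91.7 and 74.2 in KO, 14.4 and 7.31 in 41584, 77.9 and 67.2 in 41585, 8.13 and 5.94 in 41589, and 10.3 and 8.27 in SOM. The KO and 41585 libraries were far above all others. Parva rose by 2.72 ± 0.34 and 2.73 ± 0.34 (edgeR adjusted p = 0.000656 and 0.000819). Ilk and Actn4 rose in KO against WT by 1.06 ± 0.27 and 1.21 ± 0.37 (adjusted p = 0.0236 and 0.0469). Itgb1bp1, a binding partner of the beta 1 tail, fell by 1.43 ± 0.35 and 1.18 ± 0.35 (adjusted p = 0.0206 and 0.0427).

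Of 24 matrix proteases and inhibitors, 17 were tested, with 2 rising and 1 falling in KO against WT (all genes 7.29% and 5.9%) and 1 each way in 41585 against 41584 (7.65% and 5.07%), counts near the background. Mmp2, a gelatinase that cuts type IV collagen, fell by 2.43 ± 0.59 and 2.02 ± 0.58 (edgeR adjusted p = 0.0201 and 0.0398). Timp3, an inhibitor held in the matrix, rose by 2.52 ± 0.55 in KO against WT (adjusted p = 0.0131), and its 41585 libraries were unequal at 74.1 and 15.4 CPM. Mmp23 was listed at 0 and 0.219 CPM in WT and at 5.24 and 7.08 CPM in KO (adjusted p = 0.00434), and Mmp15 was not called (adjusted p = 0.0746).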

How the data were processed

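Poly(A) RNA libraries of 12 samples were read on a HiSeq2000. Reads were aligned with STAR 2.4.2a to mm10 (GRCm38), per the submitters' processing notes; the counting program, its strand setting and its annotation were not stated there. The authors deposited unnormalized counts for 47643 Ensembl genes, and all columns were mapped to samples by their descriptions. GENCODE M21 gave symbols to 47224 genes, and left 419 without one, and positions and merged exon lengths on GRCm38. RefSeq gave miRNAs and promoters, with a promoter entry for 29 of the 43 members.

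From the counts, edgeR 4.0.16 (quasi-likelihood, robust, TMM, 1 mean per group, all 12 libraries) tested 14629 genes left by filterByExpr, with 6 residual degrees of freedom and a common biological coefficient of variation of 0.278. P-values were adjusted over all tested genes by Benjamini-Hochberg at 0.05. The script was tested on simulated data. Depth was 5348401 to 10428509 counts, and levels use CPM over TMM-scaled totals with 0.5 added before logs.

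Alternatives were DESeq2 1.42.0, RLE scaling, no filter, the compared groups alone, a replicate block and each library left out. Chromosome 15 scaling, the interaction test and the miRNA sites were chosen after seeing the data. Members and gene lists were chosen with earlier results of these data known. Named with full statistics were members called in KO against WT or 41585 against 41584, the 10 of highest CPM per kb, main ES cell receptor and matrix chains, and up to 4 genes of each list with the smallest adjusted p in KO against WT. Others named in the text were chosen after their values were seen. No sequence of proteins was used here. A single item is counted among the members but is not reported here.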

Additional observations from a re-analysis of the deposited data

How the results depend on the processing

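With no filter on low counts, 23 members were called in KO against WT (10.9% of all genes) and 20 in 41585 against 41584 (11.4%). There were 13 in 41589 against 41585 (8.4%), 10 in SOM against KO (5.71%) and 2 in 41585 against KO (0.44%). In 41584 against WT there were 4 (0.488%), and in SOM against WT 9 (4.97%). DESeq2 called 16 in 41585 against 41584 (17.3% of all genes), 10 in 41589 against 41585 (11.5%) and 7 in SOM against KO (8.65%). It called 1 in 41584 against WT (0.286%) and 3 in SOM against WT (5.3%). With only the compared groups in the fit the counts were 28 in KO against WT (35.9% of all genes) and 5 in 41585 against 41584 (3.01%). They were 2 in 41589 against 41585 (4.06%) and 13 in SOM against KO (17.6%). In 41585 against KO the count was 4 (4.07%), and in SOM against WT 12 (15.7%). The replicate block gave 5 in SOM against KO (7.41% of all genes) and 1 in SOM against WT (0.0205%). Elsewhere it stayed within 1.5 times the main count. Replicate numbers do not establish pairing: deviations of same-numbered libraries correlated at -0.019 between WT and KO, at 0.331 between 41584 and 41585, and over all pairs of groups from -0.09 to 0.535 (WT and 41589). RLE scaling and chromosome 15 scaling moved no count by more than 1.5 times. The causes were not tested.

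Leaving out 1 library gave 1 to 4 calls in KO against WT, 1 to 10 in 41585 against 41584, 0 to 10 in 41589 against 41585, 0 to 2 in SOM against KO, 0 to 1 in 41584 against WT, 17 to 27 in the pooled comparison, and 0 to 0 in the other 3.

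Direction changed for uncalled values, given as the range over single libraries left out with the library at the reversed end. Only members named with full statistics were followed here, and in the pooled comparison also those called in it. Other members, such as Col22a1, Col26a1, Col4a5 and Col5a1 in 41585 against 41584, were not followed. In KO against WT, Col2a1 ran from -0.05 (without WT replicate 1; -0.04 without KO replicate 1) to 0.24, Itga6 from -0.20 to 0.04 and Col4a1 from -0.40 to 0.03 (both without WT replicate 1), and Col4a2 from -0.08 (without WT replicate 2) to 0.50. In 41585 against 41584, without 41584 replicate 1 being the upper end, Col20a1 ran from -2.68 to 0.29, Col4a1 from -1.98 to 0.65, Col4a2 from -1.52 to 1.92 and Col27a1 from -1.23 to 0.89 (0.18 without 41585 replicate 2). Itga1 ran from -1.81 to 0.14 (without 41584 replicate 2). In the pooled comparison Col4a1 ran from -0.71 to 0.16 and Col4a2 from -0.32 to 0.83 (both without 41584 replicate 1), with Col4a2 also at 0.07 without WT replicate 1, 0.19 without 41585 replicate 2 and 0.03 with the replicate block. With 2 libraries a group, replicate number and depth limit what low genes such as Itgae or Col27a1 can show.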
